A study of Homo sapiens with 60 samples.

Results

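The genes described here are 7 genes of the liver X receptor (LXR) axis of cholesterol export: the receptors NR1H3 (LXR alpha) and NR1H2 (LXR beta), and 5 genes that LXRs are known to switch on, ABCA1, ABCG1, APOE, MYLIP and LPCAT3. They were taken by name from the 60675 gene identifiers of the expression table, and all 7 were found. The samples are A549 cells, an established line of human lung adenocarcinoma, and their RNA was sequenced 24 h after they received extracts used in Korean tonic medicine. The 60 libraries fall into 25 groups, and all their titles carry the label BatchC. Ethanol extracts of Glycyrrhizae Radix (licorice root), Panax Ginseng, Poria Cocos and Atractylodis Rhizoma had 3 libraries at each dose, and those of Paeoniae Radix (peony root) and Angelicae Gigantis Radix had 1 library at each dose. The formulas Sibjeondaebo-tang and Palmul-tang, which combine several herbs and were extracted in water, had 3 and 2 libraries at each dose. Labelled doses were 20 (low), 100 (medium) and 500 µg/mL (high) for every extract, and the reference was DMSO vehicle (n = 3). The sample labels give 0.1% DMSO where the series text gives 2%, and that text also gives lower doses, set from toxicity, for some extracts that it does not name. The doses are therefore those of the labels.

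LXRs are nuclear receptors that sit on DNA with a retinoid X receptor (RXR) and are activated by oxysterols, the oxidised forms of cholesterol that build up when a cell holds too much of it. Their targets move cholesterol out of the cell: ABCA1 and ABCG1 are membrane pumps that pass it to lipoproteins, and APOE is an acceptor. MYLIP (also called IDOL) marks lipoprotein receptors for degradation and so limits uptake, and LPCAT3 builds polyunsaturated fatty acids into membrane phospholipids. The opposing arm, run by the transcription factor SREBP2, raises cholesterol synthesis and uptake when sterols are scarce.

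Library totals ran from 18602541 to 29764378 counts. The labelled cell line was checked against its markers. The summed level of 8 epithelial and A549 genes (KRT8, KRT18, ALDH1A1 and others) was 12773 to 18776 CPM (counts per 1000000 counts of the scaled library total), and 8 macrophage genes summed to 2.84 to 4.98 CPM, with PTPRC, LYZ, CD163, MSR1 and TYROBP at or near 0. Nearly all of that sum was CD14 (median 2.56 CPM) and ITGAM (median 0.997 CPM), which had counts in all 60 libraries. A list of 8 fibroblast genes summed to 11.6 to 19.8 CPM. COL3A1 (median 7.96 CPM), DCN (4.64 CPM) and COL1A1 (2.15 CPM) were its highest genes and had counts in all 60 libraries. The Paeoniae high-dose library stood apart. Of 17765 genes tested, 20.8% were above and 19.0% below every library outside that extract, against 0.912% above and 0.827% below for the Angelicae high-dose library. Whether replicate libraries are separate cultures is not stated in the labels, and p-values here refer to the spread among libraries, which may be technical. In bulk RNA, fewer cells of a type and less RNA per cell cannot be told apart.

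Per kilobase of exon, LPCAT3 and NR1H2 were the most abundant members, with medians over the 60 libraries of 12.6 and 11.5 CPM per kb. APOE followed at 9.77 and NR1H3 at 4.65 CPM per kb. The exporters and MYLIP were far lower, ABCA1 at 0.807, MYLIP at 0.642 and ABCG1 at 0.00685 CPM per kb. Both LXR genes were thus read in every library, and ABCG1 was close to silent: 18 of 60 libraries held 0 ABCG1 counts, 1 library held 20, and no other held more than 4. A count of 0 allows up to 3 counts, and intervals on counts here cover counting error only. ABCG1 passed the filter on low counts only through the Paeoniae high-dose library, so no fitted change is given for it. Shares of members called are given out of the other 6, and counts at an unadjusted p were taken over all 7.

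The levels of each member in all libraries are plotted by extract and dose.

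**Figure D1:**
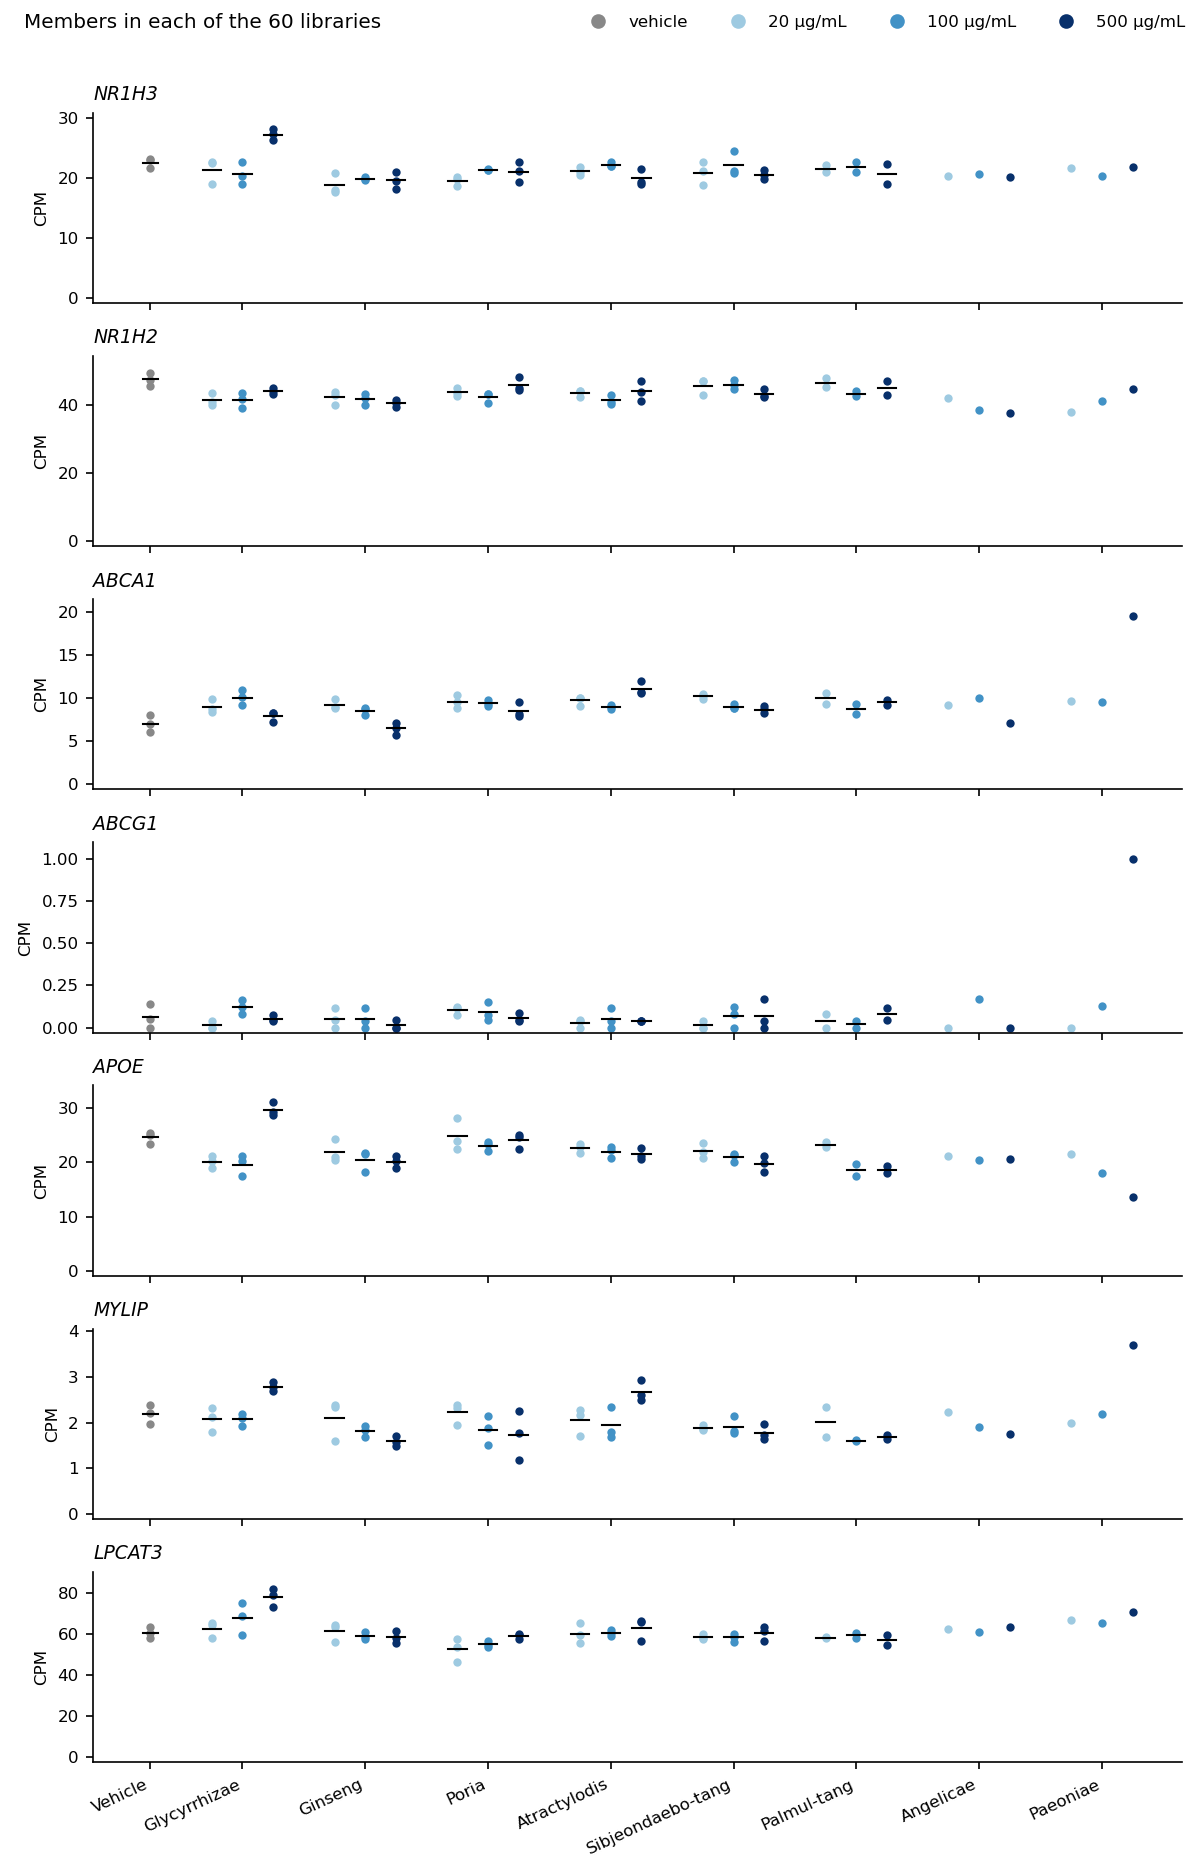
Level of each member in CPM on scaled library totals (vertical axes, linear from 0) in the 60 libraries, by extract (horizontal axis) with doses ordered from 20 to 500 µg/mL and the vehicle at the left. Points are libraries and lines are means of groups with more than 1 library; the Paeoniae high-dose library is highest for ABCA1, ABCG1 and MYLIP, and the 3 Glycyrrhizae high-dose libraries are highest for APOE.

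The first question was which members changed with dose within an extract, from 20 to 500 µg/mL. With Glycyrrhizae, 4 of the 6 members other than ABCG1 rose, APOE, NR1H3, LPCAT3 and MYLIP, and none fell. Of all genes 37.0% were called, 18.5% higher and 18.4% lower (edgeR's quasi-likelihood test, Benjamini-Hochberg adjusted p under 0.05). The median log2 change over the 6 members without ABCG1 was 0.34, and that over all genes was 0.00. ABCA1, the best known LXR target, was not among those that rose.

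APOE, the lipoprotein component, had 31.1, 28.7 and 29.2 CPM in Glycyrrhizae high-dose libraries, against 21.2, 18.9 and 20.3 CPM in low-dose libraries. The groups did not overlap, and the 3 high-dose libraries had higher APOE levels than the 57 others. The log2 change was 0.56 ± 0.08 (SE, edgeR adjusted p = 4.6e-08), and it stayed between 0.52 and 0.60 when any 1 library was left out.

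NR1H3, the LXR gene that is itself an LXR target in human macrophages, had 27.3, 28.1 and 26.4 CPM in high-dose libraries, against 22.6, 19.1 and 22.6 CPM in low-dose libraries. All 3 high-dose libraries lay above all 57 others. Its log2 change was 0.35 ± 0.07 (edgeR adjusted p = 0.000149). NR1H2 averaged 44.1 CPM at high dose and 41.4 CPM at low dose, its groups overlapped, and it did not pass (log2 change 0.09 ± 0.05, edgeR adjusted p = 0.164).

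LPCAT3, the phospholipid acyltransferase, had 82.0, 79.0 and 73.3 CPM in high-dose libraries, against 64.1, 58.2 and 65.4 CPM in low-dose libraries, with no overlap. The log2 change was 0.32 ± 0.07 (edgeR adjusted p = 0.000187). LPCAT3 shares 3100 exon bases with EMG1 on the opposite strand, and the strand setting of the counting is not given in the sources used here, so reads could be split between them. EMG1 itself averaged 35.9 CPM at high and 33.8 CPM at low dose (log2 change 0.09 ± 0.07, edgeR adjusted p = 0.359). NR1H3 likewise shares 189 exon bases with ACP2 on the other strand, and ACP2 averaged 23.3 CPM at high and 24.5 CPM at low dose (log2 change -0.07 ± 0.06, edgeR adjusted p = 0.336).

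MYLIP, the ubiquitin ligase, had 2.88, 2.79 and 2.68 CPM in high-dose libraries, against 2.12, 2.32 and 1.79 CPM in low-dose libraries. The groups did not overlap, but these levels rest on 51 to 76 counts per library. The log2 change of 0.43 ± 0.16 passed narrowly (edgeR adjusted p = 0.0287). The call was lost with DESeq2 (adjusted p = 0.0828), without a filter on low counts (0.12), with only the compared libraries (0.0579) and in 4 of 6 fits without 1 library (0.0527 to 0.152).

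ABCA1 had 8.23, 7.23 and 8.31 CPM in Glycyrrhizae high-dose libraries, against 8.69, 9.89 and 8.40 CPM in low-dose libraries. Every high-dose library was below every low-dose library, yet the log2 change of -0.18 ± 0.09 did not pass (edgeR adjusted p = 0.11). Against the medium dose the difference was wider, with 9.19, 10.1 and 10.9 CPM in medium-dose libraries and a log2 change of -0.34 ± 0.09 (edgeR adjusted p = 0.0016). In that comparison of 500 with 100 µg/mL, ABCA1 fell and APOE (0.60 ± 0.08), NR1H3 (0.40 ± 0.07), MYLIP (0.42 ± 0.16) and LPCAT3 (0.21 ± 0.07) rose. These were 5 of the 6 members other than ABCG1, against 36.0% of all genes. LPCAT3 overlapped between high and medium dose and lost its call without high-dose replicate 1 (adjusted p = 0.0881) or medium-dose replicate 2 (0.214). MYLIP kept its call in 1 of 6 such fits, the edgeR adjusted p running up to 0.122. Over all 10 alternatives its adjusted p (edgeR or DESeq2) ran up to 0.138, so the call was also lost outside these fits.

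Between 100 and 20 µg/mL of Glycyrrhizae no member passed, against 0.788% of all genes. APOE averaged 19.6 CPM at medium and 20.1 CPM at low dose.

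ABCA1, the pump that loads cholesterol and phospholipid onto lipid-poor apolipoproteins, lies on chromosome 9 from 104781002 to 104928237 on the minus strand (GRCh38). Its promoter is shown because it holds the known LXR element, and because ABCA1 was lower at the high dose of Glycyrrhizae than at its medium dose, where 4 other members were higher. The 250 bases before the RefSeq start, chr9:104928156-104928405 (minus strand, GRCh38.p14, 5′ to 3′ in the direction of the gene), have the element in capitals.
ABCA1: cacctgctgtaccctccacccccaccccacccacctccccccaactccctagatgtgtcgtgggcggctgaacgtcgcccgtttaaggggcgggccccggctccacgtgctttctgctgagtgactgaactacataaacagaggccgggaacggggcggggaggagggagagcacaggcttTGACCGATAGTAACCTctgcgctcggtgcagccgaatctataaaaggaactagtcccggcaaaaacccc
The motif searched was a direct repeat of AGGTCA with 4 free bases between the copies, on both strands, with up to 2 mismatches in 12 positions. The ABCA1 site runs from base -69 to base -54 relative to the start, opposite to the gene, and has 2 mismatches. Of 35116 RefSeq promoter windows of 250 bases before and 50 after a start, 2.34% held a match at least as good. Among the 6 members with a window, the other 5 had at least 4 mismatches at their best position, which says only that these letters are not in those windows. ABCG1 was not examined.

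With Ginseng, ABCA1 was the 1 of 6 members other than ABCG1 that passed between 500 and 20 µg/mL, and it fell. Of all genes 1.20% were called, 0.552% higher and 0.653% lower. ABCA1 had 6.55, 5.77 and 7.14 CPM in high-dose libraries, against 9.0, 9.87 and 8.80 CPM in low-dose libraries. The groups did not overlap, and the high-dose group had the lowest ABCA1 mean of all 25 groups. The log2 change was -0.52 ± 0.09 (edgeR adjusted p = 0.000624) and ran from -0.59 to -0.44 with 1 library left out, passing each time. It was the same size but did not pass when only the 6 compared libraries were fitted (adjusted p = 0.123), a fit that called 21 genes where the fit of all libraries called 214.

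Against 100 µg/mL of Ginseng, ABCA1 averaged 6.49 CPM at high and 8.56 CPM at medium dose, a log2 change of -0.40 ± 0.09 (edgeR adjusted p = 0.0356), and it was again the 1 member that passed, against 0.276% of all genes. That call held in 2 of 6 fits without 1 library. It was lost without high-dose replicate 1 (adjusted p = 0.135), high-dose replicate 2 (0.322), medium-dose replicate 2 (0.224) and medium-dose replicate 3 (0.189). Between 100 and 20 µg/mL edgeR called no gene at all (0.0%) and DESeq2 called 3, and 0 members had an unadjusted p under 0.05. MYLIP averaged 1.59 CPM at high and 2.11 CPM at low dose of Ginseng, a change that did not pass (log2 change -0.41 ± 0.17, edgeR adjusted p = 0.379).

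With the other 4 replicated extracts no member passed between 500 and 20 µg/mL. The shares of all genes called were 1.55% for Poria, 0.208% for Atractylodis, 3.78% for Sibjeondaebo-tang and 2.08% for Palmul-tang. At an unadjusted p under 0.05 there were 2, 2, 2 and 1 members, in the same order. Of all 17765 genes, 2112, 1214, 2660 and 2148 were under that unadjusted threshold. Atractylodis gave the highest ABCA1 of these groups, with 10.6, 12.0 and 10.7 CPM in high-dose libraries, against 9.13, 10.0 and 10.1 CPM in low-dose libraries. These groups did not overlap, but the log2 change of 0.19 ± 0.08 did not pass (edgeR adjusted p = 0.648). MYLIP did not overlap either, at 2.50 to 2.92 CPM in Atractylodis high-dose libraries and 1.70 to 2.29 CPM in low-dose libraries (0.38 ± 0.16, edgeR adjusted p = 0.615). ABCA1 with Sibjeondaebo-tang had 9.05, 8.24 and 8.70 CPM in high-dose libraries, against 10.3, 10.4 and 9.89 CPM in low-dose libraries. These did not overlap, and the log2 change of -0.24 ± 0.09 did not pass (edgeR adjusted p = 0.132). LPCAT3 with Poria likewise separated, at 57.5 to 59.8 CPM in high-dose and 46.5 to 57.4 CPM in low-dose libraries (0.17 ± 0.07, edgeR adjusted p = 0.299). APOE with Palmul-tang came closest to the threshold. It had 17.98 and 19.3 CPM in high-dose libraries, against 22.8 and 23.8 CPM in low-dose libraries (log2 change -0.32 ± 0.10, edgeR adjusted p = 0.0749). That change passed with DESeq2 (adjusted p = 0.0422) and with only the compared libraries (0.0271).

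No member passed between 500 and 100 µg/mL of these extracts, where 0.129% of genes were called for Poria, 0.0957% for Atractylodis, 0.0957% for Sibjeondaebo-tang and 0.0619% for Palmul-tang. In the same order, 1, 3, 0 and 0 members had an unadjusted p under 0.05. With Atractylodis, ABCA1 did not overlap, at 10.6 to 12.0 CPM at high and 8.79 to 9.24 CPM at medium dose (log2 change 0.30). MYLIP (2.50 to 2.92 against 1.68 to 2.35 CPM, 0.46) and NR1H3 (19.0 to 21.6 against 21.9 to 22.8 CPM, -0.15) separated too. NR1H2 and LPCAT3 also separated with Poria, NR1H2 with Sibjeondaebo-tang and MYLIP with Palmul-tang. No member passed between 100 and 20 µg/mL of these extracts either, although the libraries of some did not overlap. How often other genes separate in this way was not counted in any comparison, so a separation alone is not read as a change. NR1H3 was higher at medium dose without overlap with Poria (21.3 to 21.5 against 18.7 to 20.2 CPM) and Atractylodis (21.9 to 22.8 against 20.4 to 21.8 CPM). MYLIP and NR1H2 with Palmul-tang were lower at medium dose without overlap. APOE with Palmul-tang had 19.8 and 17.4 CPM at medium dose, against 22.8 and 23.8 CPM at low dose (log2 change -0.32 ± 0.10, edgeR adjusted p = 0.552). ABCA1 with Sibjeondaebo-tang had 8.87, 9.33 and 8.82 CPM at medium dose, against 10.3, 10.4 and 9.89 CPM at low dose (-0.18 ± 0.09, edgeR adjusted p = 0.847). Poria, Atractylodis and Palmul-tang called 0.0% of genes and Sibjeondaebo-tang 0.0788%, with no member among them by edgeR or by DESeq2. For Poria, Atractylodis, Sibjeondaebo-tang and Palmul-tang, 0, 0, 1 and 1 members had an unadjusted p under 0.05. The share of all genes under that unadjusted threshold is not given here for comparisons with the medium dose.

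**Figure D2:**
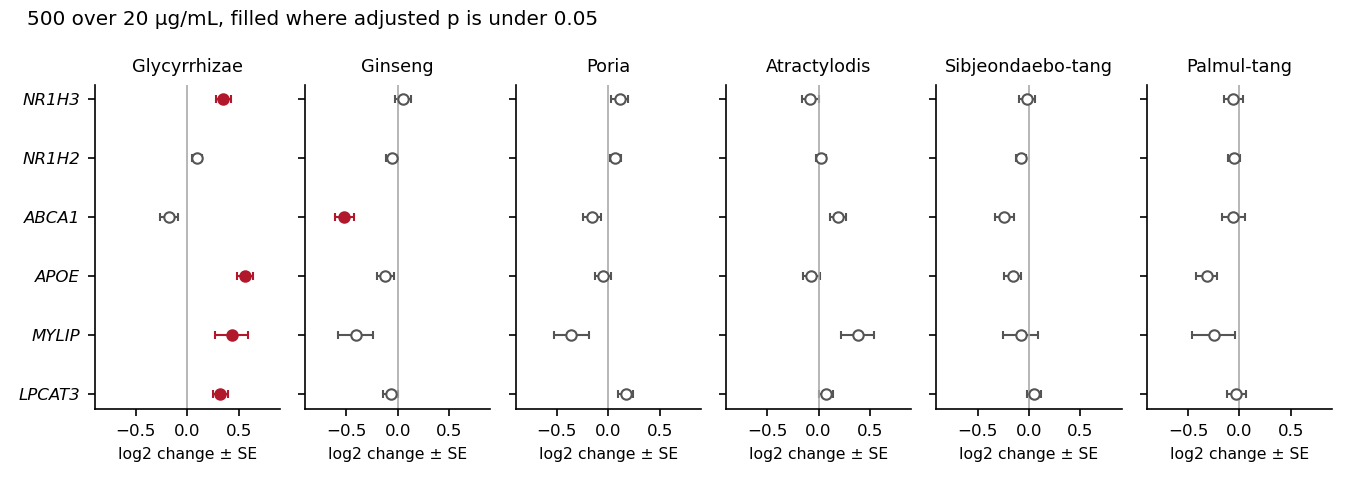
Log2 change of 6 members from 20 to 500 µg/mL (horizontal axes, with SE) in the 6 replicated extracts, from the fit of all 60 libraries; ABCG1 is not drawn. Filled points have an adjusted p under 0.05: APOE, NR1H3, LPCAT3 and MYLIP with Glycyrrhizae, all higher, and ABCA1 with Ginseng, lower.

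The dose changes of the 6 replicated extracts were then set against each other in the same model, 15 pairs in all, each with p adjusted over all genes. The change of APOE with Glycyrrhizae exceeded that with each of the 5 other extracts, by 0.61 ± 0.11 (log2, against Poria) to 0.88 ± 0.12 (against Palmul-tang), with edgeR adjusted p from 2.82e-07 to 2.04e-05. In these pairs 4, 2, 3, 3 and 3 members passed for Glycyrrhizae minus Ginseng, Poria, Atractylodis, Sibjeondaebo-tang and Palmul-tang. The shares of all genes were 21.0%, 23.7%, 24.2%, 24.4% and 20.8% in the same order. ABCA1 differed in 2 pairs. Its change was lower with Ginseng than with Atractylodis by -0.70 ± 0.12 (edgeR adjusted p = 0.00241), the 1 member called where 0.113% of genes were. It was also lower with Glycyrrhizae than with Atractylodis by -0.37 ± 0.12 (edgeR adjusted p = 0.0219). ABCA1 with Glycyrrhizae minus Ginseng lay at the threshold without passing it (0.34 ± 0.13, edgeR adjusted p = 0.0504). In the remaining 9 pairs no member passed. The shares of genes called there were 0.0113% for Ginseng minus Poria, 0.293% for Ginseng minus Sibjeondaebo-tang, 0.169% for Ginseng minus Palmul-tang, 0.0732% for Poria minus Atractylodis and 0.0169% for Poria minus Sibjeondaebo-tang. They were 0.0% for Poria minus Palmul-tang, 0.467% for Atractylodis minus Sibjeondaebo-tang, 0.405% for Atractylodis minus Palmul-tang and 0.0% for Sibjeondaebo-tang minus Palmul-tang.

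Paeoniae and Angelicae had 1 library at each dose, so their differences have no replicate check and no test. With Paeoniae, ABCA1 had 9.63, 9.59 and 19.5 CPM at 20, 100 and 500 µg/mL. The high-dose value, from 392 counts (95% exact Poisson interval 354 to 433), was above all 59 other libraries, the next being 12.0 CPM. ABCG1, the partner exporter, had 0, 3 and 20 counts over the same doses. The 20 counts (95% exact Poisson interval 12.2 to 30.9) came to 0.997 CPM. That is 6.66-fold the low dose when its 0 is set at 3 counts and the 20 is taken as counted. Within the interval of the 20 counts the ratio can be lower, so it is not a lower bound. MYLIP had 2.00, 2.18 and 3.69 CPM, again the highest of all libraries at high dose, from 74 counts (58.1 to 92.9). APOE went the other way, with 21.5, 18.1 and 13.6 CPM, the lowest of all 60 libraries at high dose.

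Without ABCG1, which entered the genes tested only through this library, 2 of 6 members (ABCA1 and MYLIP) were at least 1.5-fold higher in CPM + 1 at the high than at the low dose of Paeoniae, and APOE was at least 1.5-fold lower, against 9.61% of all genes higher and 9.65% lower. The same 2 lay above every library outside the extract, against 20.8% of genes, and APOE below, against 19.0%. NR1H3 (21.7, 20.4 and 21.9 CPM), NR1H2 (37.8, 41.1 and 44.6 CPM) and LPCAT3 (66.9, 65.2 and 70.6 CPM over the doses) stayed within the range of the other libraries. With Angelicae no member moved by 1.5-fold, where 0.355% of genes were higher and 0.422% lower by that much. ABCA1 there had 9.22, 10.0 and 7.12 CPM and APOE 21.2, 20.4 and 20.6 CPM over the 3 doses.

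**Figure D3:**
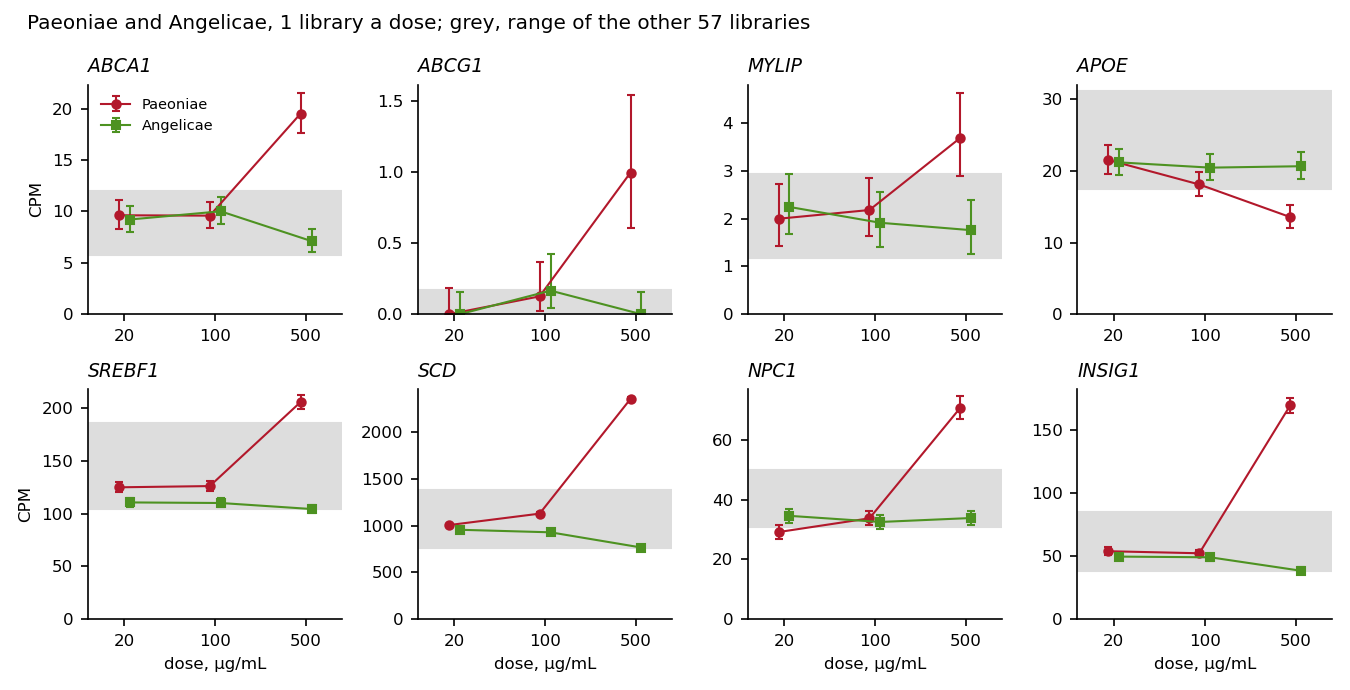
CPM (vertical axes, linear from 0) at 20, 100 and 500 µg/mL for Paeoniae and Angelicae, 1 library a dose, with bars for the 95% Poisson interval of the count alone. The grey band is the range over the 57 libraries outside Paeoniae; ABCA1, ABCG1, MYLIP, SREBF1, SCD, NPC1 and INSIG1 lie above it at the highest Paeoniae dose and APOE below it.

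Against the vehicle, ABCA1 passed as higher in 16 of 18 comparisons, all but Glycyrrhizae high dose (7.92 CPM) and Ginseng high dose (6.49 CPM), where the vehicle averaged 7.04 CPM. The vehicle libraries had 7.03, 6.05 and 8.05 CPM, so 1 group was shared by all 18 comparisons. Without vehicle replicate 2, which is lowest, 9 of 18 passed, and without replicates 1 and 3, 13 and 17. Without the filter on low counts 12 of 18 passed, and with DESeq2 16. APOE averaged 24.6 CPM in the vehicle and was lower in 8 comparisons and higher in 1, Glycyrrhizae high dose. NR1H2 was lower in 7 and higher in none, 5 and 10 being lower without vehicle replicates 2 and 1. It was lower in 5 without the filter on low counts and in 8 with DESeq2. NR1H3 was higher with Glycyrrhizae high dose (0.27 ± 0.07, edgeR adjusted p = 0.00247) and lower in 3 others, and LPCAT3 was higher with Glycyrrhizae high dose (0.37 ± 0.07, edgeR adjusted p = 2.05e-05) and lower with Poria low dose, a call lost without vehicle replicate 1 (0.0782) or 3 (0.128). MYLIP was lower with Ginseng high dose alone (edgeR adjusted p = 0.0442), a call lost without vehicle replicate 1 (0.0961) or 2 (0.162), and without either of these NR1H3 was lower in 1 comparison. The MYLIP call was also lost with DESeq2 and without the filter on low counts. Without that filter NR1H3 was likewise lower in 1 comparison, and with DESeq2 in 3. All vehicle libraries carry a sample code prefix of their own (C1). Extracts had prefix 8 (both formulas), 9 (Poria and Atractylodis), 10 (Glycyrrhizae and Ginseng) or 11 (Angelicae and Paeoniae). What these sets of codes stand for is not stated in the titles. Extract and set therefore cannot be told apart against the vehicle, or between extracts of different sets. The share of all genes called was large already at low dose. Over low, medium and high dose it was 28.8%, 32.9% and 46.8% for Glycyrrhizae, where 3, 3 and 3 members passed, and 28.8%, 29.6% and 28.9% for Ginseng, where 3, 3 and 4 did. For Poria it was 19.5%, 21.6% and 16.3% with 3, 2 and 1 members, and for Atractylodis 23.7%, 21.8% and 26.1% with 1, 2 and 1. For Sibjeondaebo-tang it was 24.1%, 18.4% and 15.2% with 1, 2 and 2 members, and for Palmul-tang 15.4%, 20.2% and 22.2% with 1, 2 and 2.

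Ordered by mean level over the 25 groups, ABCA1 ran from Ginseng high dose (6.49 CPM) and the vehicle (7.04 CPM) to Atractylodis high dose (11.1 CPM) and Paeoniae high dose (19.5 CPM). Of its 24 neighbouring pairs, 20 overlapped in their libraries. APOE ran from Paeoniae high dose (13.6 CPM) to Glycyrrhizae high dose (29.7 CPM), MYLIP from Ginseng high dose (1.59 CPM) to Paeoniae high dose (3.69 CPM), and LPCAT3 from Poria low dose (52.5 CPM) to Glycyrrhizae high dose (78.1 CPM). NR1H3 spanned 18.9 CPM with Ginseng low dose to 27.3 CPM with Glycyrrhizae high dose, and NR1H2 37.7 CPM with Angelicae high dose to 47.5 CPM in the vehicle. Of 24 neighbouring pairs, 22 overlapped for APOE and 21 for each of MYLIP, LPCAT3, NR1H3 and NR1H2.

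The wider LXR programme was described from lists of related genes. Of 14 other LXR targets, 8 passed the filter on low counts, and ABCG5, ABCG8, CETP, LPL, APOC2 and APOC4 were too low to test. With Glycyrrhizae 5 of the 8 rose and 1 fell, with a median log2 change of 0.44, against 18.5% and 18.4% of all genes. SREBF1, which encodes the lipogenic factor SREBP1, averaged 169.9 CPM at high and 118 CPM at low dose (0.53 ± 0.06, edgeR adjusted p = 1.31e-09). The desaturase gene SCD averaged 1351 CPM at high and 963 CPM at low dose (0.49 ± 0.04, edgeR adjusted p = 2.24e-15). MLXIPL, the carbohydrate-responsive lipogenic factor, averaged 7.93 CPM at high and 3.39 CPM at low dose (1.23 ± 0.18, edgeR adjusted p = 4.48e-07). FASN, fatty acid synthase, fell to 942 CPM at high dose, against 1318 CPM at low dose (-0.48 ± 0.06, edgeR adjusted p = 5.2e-09). With Ginseng, Poria and Atractylodis SCD alone of the 8 rose, by 0.19 ± 0.04, 0.27 ± 0.04 and 0.16 ± 0.04 (edgeR adjusted p = 0.002, 1.39e-05 and 0.029). The shares of all genes that were higher were 0.552%, 1.06% and 0.113% in the same order.

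VLDLR and LRP8, lipoprotein receptors that MYLIP marks for degradation, rose in mRNA with Glycyrrhizae. VLDLR averaged 28.2 CPM at high and 8.04 CPM at low dose (1.81 ± 0.06, edgeR adjusted p = 1.75e-27), and LRP8 averaged 67.1 CPM at high and 48.1 CPM at low dose (0.48 ± 0.06, edgeR adjusted p = 1.55e-09). VLDLR also rose with Atractylodis (0.39 ± 0.07, edgeR adjusted p = 0.000998). These are transcript levels and say nothing of the receptor proteins.

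Among 10 genes of sterol synthesis under SREBP2, 8 rose with Ginseng and none fell, with a median log2 change of 0.26, against 0.552% of all genes higher. SQLE, squalene epoxidase, averaged 203 CPM at high and 163 CPM at low dose of Ginseng (0.32 ± 0.04, edgeR adjusted p = 2.55e-06), and INSIG1, a sterol-sensing brake that SREBPs induce, 65.7 CPM at high and 53.0 CPM at low dose (0.31 ± 0.04, edgeR adjusted p = 1.11e-05). DHCR7 and FDFT1 rose by 0.31 ± 0.05 and 0.25 ± 0.04. With Poria 4 of 10 rose (1.06% of all genes higher, 0.484% lower), and with Atractylodis none was called (0.113% higher, 0.0957% lower). With Atractylodis 5 of the 10 had an unadjusted p under 0.05, against 1214 of 17765 genes, and the median log2 change was -0.11. Glycyrrhizae split the list, 4 higher and 4 lower, against 18.5% and 18.4% of all genes. INSIG1 (0.66 ± 0.04, edgeR adjusted p = 5.59e-18) rose with it, and HMGCS1 (-0.73 ± 0.05, edgeR adjusted p = 7.93e-16) and LSS (-0.35 ± 0.06, edgeR adjusted p = 3.19e-06) fell. In the Paeoniae high-dose library 5 of the 10 were at least 1.5-fold higher than at low dose and none lower, against 9.61% and 9.65% of genes. INSIG1 had 53.9, 52.3 and 169.7 CPM over the doses. SREBF1 had 125, 126 and 206 CPM, and SCD 1006, 1128 and 2356 CPM over the same doses. These 2 rose, but the 8 other LXR targets tested went both ways with Paeoniae. At high dose 3 of the 8 were at least 1.5-fold higher than at low dose and 2 lower, against the same shares of genes. Of the 8, 3 lay above and 2 below every library outside the extract.

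Of 12 genes of cholesterol handling, 5 rose and 2 fell with Glycyrrhizae, against 18.5% and 18.4% of all genes. NPC1, which releases cholesterol from lysosomes, averaged 49.1 CPM at high and 34.3 CPM at low dose (0.52 ± 0.05, edgeR adjusted p = 1.77e-12), and NCEH1, which frees stored cholesterol, rose by 0.23 ± 0.05. ABCA7, a relative of ABCA1, fell by 0.39 on the log2 scale (SE 0.08, edgeR adjusted p = 0.000143). The sterol carrier OSBP rose by 0.16 ± 0.04. With Ginseng NPC1 was the 1 of 12 that rose (0.20 ± 0.05, edgeR adjusted p = 0.026), where 0.552% of all genes were higher. In the Paeoniae high-dose library 6 of 12 were at least 1.5-fold higher, against 9.61% of all genes, NPC1 with 29.2, 33.8 and 70.9 CPM over the doses among them.

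Of the LXR partners and coregulators 8 of 9 were tested, and with Glycyrrhizae 2 rose and 3 fell, 5 of 8 where 37.0% of all genes were called, and the median log2 change was -0.02. RXRA rose by 0.23 ± 0.07 (edgeR adjusted p = 0.0054) and RXRB fell by 0.31 on the log2 scale (SE 0.07, edgeR adjusted p = 0.00032). The corepressor NCOR1 rose by 0.12 ± 0.04. Of 7 enzymes that make or clear oxysterols, 4 were tested, and 2 fell, where 18.4% of all genes were lower. HSD3B7 was 1 of these, lower by 0.23 on the log2 scale (SE 0.08, edgeR adjusted p = 0.0171). CH25H and CYP27A1 were too low to test. In the same comparison 6 of 8 epithelial and A549 genes fell and none rose, against 18.4% of all genes lower and 18.5% higher. KRT8 had 2113 CPM at high and 3630.4 CPM at low dose, and KRT18, KRT19 and CDH1 were lower by 0.43 to 0.58 on the log2 scale. Among 6 fibroblast genes tested THY1 rose and COL3A1 and DCN fell, and of 2 macrophage genes tested CD14 rose. The part of these changes in the members' values was not tested.

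**Figure D4:**
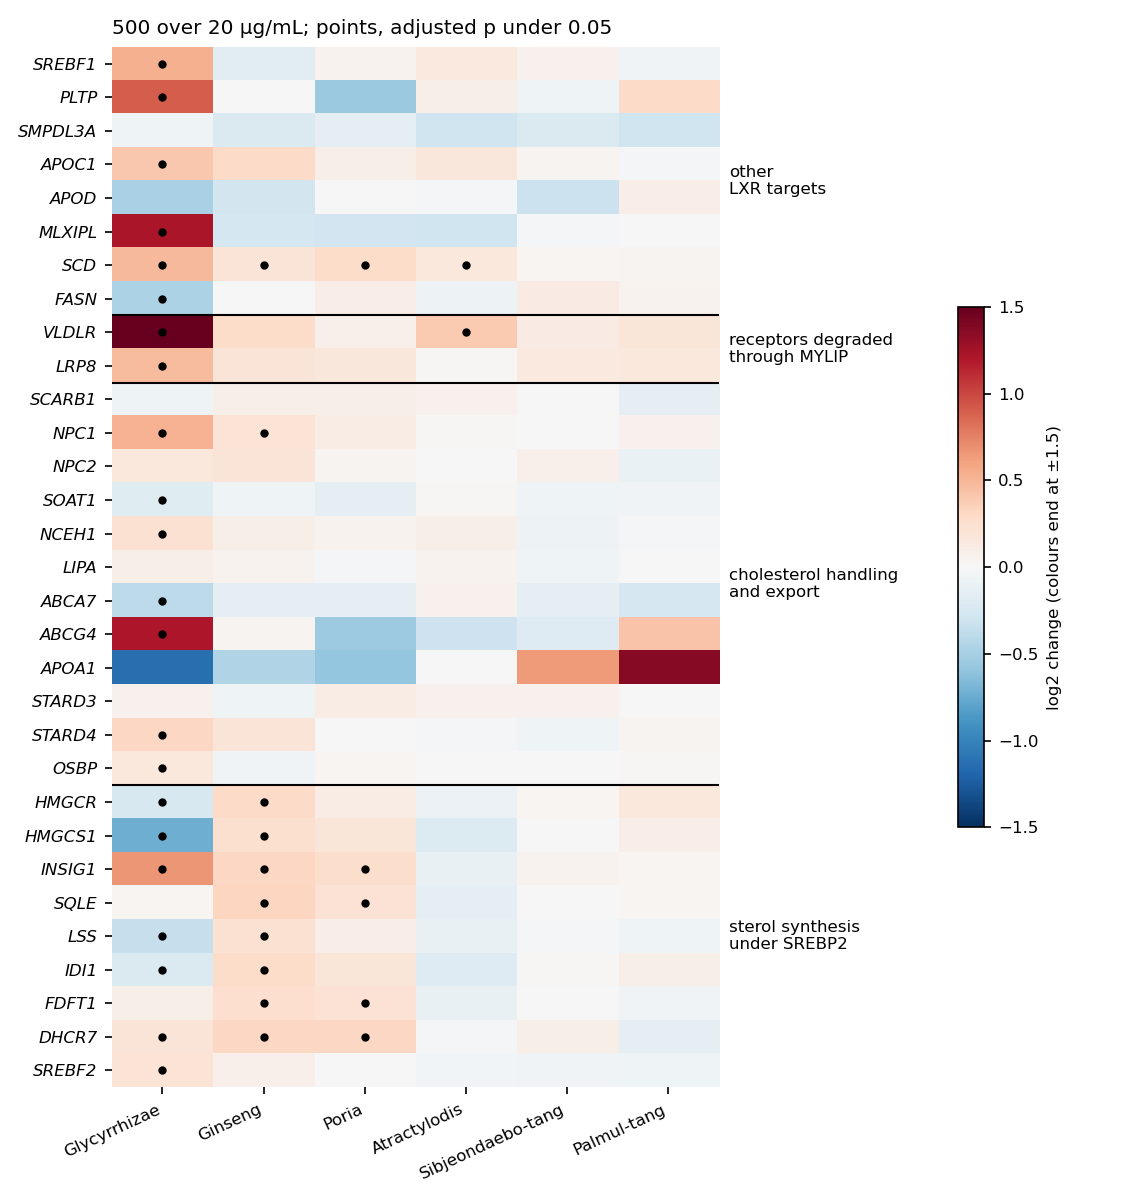
Log2 change from 20 to 500 µg/mL (colour, from lower in blue to higher in red, ending at ±1.5) for related genes (rows, by list) in the 6 replicated extracts (columns). Black points have an adjusted p under 0.05; 8 of the sterol synthesis genes drawn are marked with Ginseng, all higher, while genes marked with Glycyrrhizae lie in both directions.

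The genes most like each member over the 25 group means were ranked by Pearson's r of log2(CPM + 0.5) among 10692 genes averaging at least 5 CPM. The points share libraries of the same set and depth, so the values are descriptions. ABCA1 was nearest to WBP1L, EIF4B and INSR, each at 0.87, but without Paeoniae high dose these were 0.63 to 0.64. ABCG1 was nearest to AGBL5 (0.95), and to it at 0.49 without that group. MYLIP was nearest to GPRC5C (0.84, and 0.77 without). LPCAT3 was nearest to VSIG10L (0.85), NR1H2 to LENG9 (0.85), NR1H3 to PVR (0.86) and APOE to DNHD1 (0.90, and 0.81 without). Between members, ABCA1 and MYLIP had an r of 0.68 over 25 groups and 0.30 over 24, and ABCA1 and APOE -0.58 and -0.15. The relations of these pairs rested on the Paeoniae high-dose library. Other pairs did not weaken in this way. LPCAT3 and NR1H3 had an r of 0.55 over 25 and over 24 groups, and MYLIP and LPCAT3 0.61 and 0.53. NR1H3 and APOE had 0.35 and 0.56, and MYLIP and APOE -0.16 and 0.53.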

How the data were processed

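Expected counts per gene were deposited by the authors for all samples in 1 table. Per the submitters' processing notes, FastQC 0.11.9, Trim Galore 0.6.5, STAR 2.7.3a, RSEM 1.3.3 and the build GRCh38 (hg38) were used; strand setting and annotation release: not given in the sources used here. Of 270 columns, the 60 of these samples were used and 210 were not used here. The values were rounded to whole counts (76.0% of those above 0 were whole within 1e-09).

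Symbols and positions came from GENCODE 29 matched by identifier, and promoter sequences from RefSeq (GRCh38.p14). Genes passing filterByExpr (17765) were scaled by TMM and fitted with 1 mean per group over all 60 libraries (edgeR 4.0.16, R 4.3.3; glmQLFit, glmQLFTest, 35 residual degrees of freedom), with 51 comparisons. SE was derived from each log2 change and its F statistic. CPM uses scaled totals. Paeoniae and Angelicae were compared by log2(CPM + 1). The fit was tested on simulated data with known changes. No pair of replicates lay within sampling noise (chi-square per degree of freedom 2.72 to 40.3 over 51 pairs).

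Alternatives were RLE size factors, DESeq2 1.42.0, no filter, only the compared libraries, leaving out each library, a replicate block, a pseudocount of 0.1 CPM and plain library totals. Leaving out libraries for the comparisons with the medium dose, and likeness without Paeoniae high dose, were added after seeing the data. The members and lists were chosen with earlier results of these data known. All 7 members are drawn in every library, but not all are named in every comparison. Members called between doses of an extract, or in a difference between extracts, are named. Against the vehicle they are counted by member. Members not called are named only in part, mostly where the libraries of the compared doses did not overlap. Of each list up to 4 called genes are named, with the smallest adjusted p in the high against low dose of Glycyrrhizae or Ginseng. The Paeoniae values of list genes, VLDLR with Atractylodis, SCD with Poria and Atractylodis, and the markers with no call were named after their values were seen. Some list genes are counted but not reported here by name or drawn.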

Additional observations from a re-analysis of the deposited data

Results flagged for a closer look

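The results below were picked out because the dose change (500 against 20 µg/mL) of a member differed between 2 extracts in a test of the difference itself (edgeR, p adjusted over all genes). Each value is the first extract's log2 change minus that of the other, with its SE. They share the Glycyrrhizae libraries, or those of Atractylodis, so they are not independent of each other.

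APOE differed between Glycyrrhizae and Ginseng by 0.68 ± 0.11, Poria by 0.61 ± 0.11, Atractylodis by 0.63 ± 0.11, Sibjeondaebo-tang by 0.72 ± 0.11 and Palmul-tang by 0.88 ± 0.12. NR1H3 differed between Glycyrrhizae and Ginseng by 0.29 ± 0.11, Atractylodis by 0.42 ± 0.10, Sibjeondaebo-tang by 0.37 ± 0.11 and Palmul-tang by 0.41 ± 0.12. LPCAT3 differed between Glycyrrhizae and Ginseng by 0.39 ± 0.10, Sibjeondaebo-tang by 0.27 ± 0.10 and Palmul-tang by 0.35 ± 0.11. MYLIP differed between Glycyrrhizae and Ginseng by 0.84 ± 0.23 and Poria by 0.79 ± 0.23. ABCA1 differed between Glycyrrhizae and Atractylodis by -0.37 ± 0.12 and between Ginseng and Atractylodis by -0.70 ± 0.12. Without a filter on low counts NR1H3 between Glycyrrhizae and Ginseng (edgeR adjusted p = 0.0614) and ABCA1 between Glycyrrhizae and Atractylodis (0.0806) no longer passed; the others passed in every alternative run for differences.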

How the results depend on the processing

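Over all alternatives no member that was called in any fit changed its direction. RLE size factors moved no member's call and no count of genes by over 1.5 times. With Glycyrrhizae high against low dose, APOE, NR1H3 and LPCAT3 passed in all 11 alternatives, with adjusted p up to 3.12e-05, 0.00496 and 0.00381. ABCA1 with Ginseng high against low dose passed in 10 of 11. The ABCG1 ratio of Paeoniae high to low dose was 1.00 on the log2 scale with 1 CPM added and 3.45 with 0.1 CPM added, by construction, and the other 13 member ratios of Paeoniae and Angelicae stayed within counting error. Depth limited ABCG1, with at most 4 counts in 59 of 60 libraries, and MYLIP, with 28 to 78 counts. Fits without 1 library of Palmul-tang leave a group with 1 sample, which is assumed to vary like the others. For the other differences below the cause was not tested.

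No strong pairing by replicate number was seen: of 51 same-numbered pairs 5 had a correlation above 0.1 (range -0.10 to 0.23), and in 0 of 18 comparisons did every pair. A weaker shared effect of replicate was not tested, and the main fit has no term for it. The replicate block was run as an alternative. It added calls for 6 member results and removed none. One of these was ABCA1 for Glycyrrhizae minus Ginseng (edgeR adjusted p = 0.0411 with the block, and 0.0411 to 0.175 over its 4 alternatives).

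Between high and low dose, Ginseng called 214 genes as reported, 332 with the replicate block, 21 with only the compared libraries and 94 to 244 without 1 library. Poria called 275, 414 with DESeq2, 493 with the replicate block, 123 with only the compared libraries and 142 to 196 without 1 library. Atractylodis called 37, 74 with DESeq2, 213 without the filter, 86 with the replicate block, 21 with only the compared libraries and 16 to 30 without 1 library. Sibjeondaebo-tang called 672, 1016 with the replicate block, 323 with only the compared libraries and 377 to 502 without 1 library. Palmul-tang called 370, 577 with the replicate block, 577 with only the compared libraries and 108 to 172 without 1 library. Between medium and low dose, Glycyrrhizae called 140 genes as reported, 211 with the replicate block and 67 to 140 without 1 library. Ginseng called 0, 3 with DESeq2, 44 without the filter and 0 to 2 without 1 library. Poria called 0, 12 with DESeq2, 60 without the filter, 1 with the replicate block and 0 to 2 without 1 library. Atractylodis called 0, 51 without the filter. Sibjeondaebo-tang called 14, 28 with DESeq2, 85 without the filter, 23 with the replicate block and 1 to 3 without 1 library. Palmul-tang called 0, 3 with DESeq2, 63 without the filter and 0 to 2 without 1 library. Between high and medium dose, Ginseng called 49 genes as reported, 75 with DESeq2, 131 without the filter, 95 with the replicate block and 10 to 45 without 1 library. Poria called 23, 62 with DESeq2, 86 without the filter, 64 with the replicate block and 10 to 13 without 1 library. Atractylodis called 17, 35 with DESeq2, 247 without the filter, 56 with the replicate block and 2 to 20 without 1 library. Sibjeondaebo-tang called 17, 91 with DESeq2, 156 without the filter, 86 with the replicate block and 4 to 25 without 1 library. Palmul-tang called 11, 45 with DESeq2, 93 without the filter, 38 with the replicate block and 1 to 7 without 1 library.

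The difference Ginseng minus Poria called 2 genes as reported, 11 with DESeq2, 81 without the filter and 10 with the replicate block. Ginseng minus Atractylodis called 20, 143 without the filter and 45 with the replicate block. Ginseng minus Sibjeondaebo-tang called 52, 101 with DESeq2, 128 without the filter and 114 with the replicate block. Ginseng minus Palmul-tang called 30, 58 with DESeq2, 101 without the filter and 67 with the replicate block. Poria minus Atractylodis called 13, 46 with DESeq2, 174 without the filter and 46 with the replicate block. Poria minus Sibjeondaebo-tang called 3, 7 with DESeq2, 95 without the filter and 8 with the replicate block. Poria minus Palmul-tang called 0, 20 with DESeq2, 100 without the filter and 6 with the replicate block. Atractylodis minus Sibjeondaebo-tang called 83, 163 with DESeq2, 218 without the filter and 201 with the replicate block. Atractylodis minus Palmul-tang called 72, 123 with DESeq2, 202 without the filter and 136 with the replicate block. Sibjeondaebo-tang minus Palmul-tang called 0, 61 without the filter.

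Leaving out 1 vehicle library gave 2144 to 3409 genes for Poria low against vehicle (3472 as reported), 1907 to 2892 genes for Poria high against vehicle (2894 as reported), 2555 to 3739 genes for Atractylodis medium against vehicle (3866 as reported), 1977 to 3218 genes for Sibjeondaebo-tang medium against vehicle (3276 as reported), 1631 to 2554 genes for Sibjeondaebo-tang high against vehicle (2692 as reported) and 1699 to 2818 genes for Palmul-tang low against vehicle (2741 as reported).

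Members called numbered 1 as reported for Ginseng high against low, 0 with only the compared libraries. For Palmul-tang high against low 0 passed as reported, 1 with DESeq2, 1 with the replicate block and 1 with only the compared libraries. For Glycyrrhizae high against medium 5 passed as reported, 3 to 5 without 1 library. For Ginseng high against medium 1 passed as reported, 0 to 1 without 1 library. For Ginseng high against vehicle 4 passed as reported, 2 without the filter and 2 to 4 without 1 library. For Poria low against vehicle 3 passed as reported, 1 to 2 without 1 library. For Poria medium against vehicle 2 passed as reported, 1 without the filter and 1 to 2 without 1 library. For Poria high against vehicle 1 passed as reported, 0 without the filter and 0 to 1 without 1 library. For Atractylodis low against vehicle 1 passed as reported, 2 with the replicate block and 1 to 2 without 1 library. For Atractylodis medium against vehicle 2 passed as reported, 1 to 2 without 1 library. For Atractylodis high against vehicle 1 passed as reported, 2 with DESeq2 and 2 with the replicate block. For Sibjeondaebo-tang medium against vehicle 2 passed as reported, 0 to 2 without 1 library. For Sibjeondaebo-tang high against vehicle 2 passed as reported, 1 without the filter and 1 to 2 without 1 library. For Palmul-tang medium against vehicle 2 passed as reported, 1 without the filter and 1 to 2 without 1 library.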
